A study of Mus musculus with 12 samples.

Results

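The S100 genes other than S100a8 and S100a9 were examined in the back skin of mice with imiquimod (IMQ)-induced psoriasis-like lesions. The members were S100a1, S100a3, S100a4, S100a6, S100a7a, S100a10, S100a11, S100a13, S100a14 and S100a16, taken by gene symbol, and all 10 were found among the 18505 genes of the deposited table. RNA of lesion or control skin of wild-type BALB/c mice was sequenced on day 10 in 12 samples, 4 in each of 3 groups. Each sample was taken as a separate mouse, and the mice were male, specific-pathogen-free and 5 to 6 weeks old. Control mice had petroleum jelly put on the shaved back, which the labels call white space handling. In the IMQ + NS group IMQ cream was applied for 6 h and the back was then covered with saline (NS) under gauze and film. The IMQ + BZLF group received the same cream, and then Banzhilian formula (BZLF), a Chinese medicine made of 9 materials, under the same cover. All treatments were given daily for 10 days. The methods name 3 doses of BZLF and do not say which of them the sequenced mice received. The paper's results call the middle dose the most effective, without tying it to the sequenced samples. The methods describe the gauze and film for the IMQ groups alone, so that IMQ and the cover cannot be told apart in a comparison with control skin. IMQ activates Toll-like receptor 7, and its repeated application is a short-lived model of psoriasis in an otherwise healthy mouse.

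S100 proteins are small calcium-binding proteins with a pair of EF-hand motifs, and most of them act as dimers that open a binding face for target proteins once calcium is bound. Inside the cell they regulate the cytoskeleton, membranes, calcium release and proliferation. Several are also secreted and act as alarmins or chemoattractants on receptors such as RAGE (gene Ager) and TLR4. In mammals most S100 genes lie in the epidermal differentiation complex, next to genes of the cornified envelope, and psoriatic skin is known for high levels of psoriasin (human S100A7) and of calprotectin, the dimer of S100A8 and S100A9.

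All 10 members lay on mouse chromosome 3 (build GRCm38, Gencode M21). The 8 genes from S100a1 to S100a7a stood in 147.6 kb, chr3:90511034-90658669, in the order S100a1, S100a13, S100a14, S100a16, S100a3, S100a4, S100a6 and S100a7a. S100a11 and S100a10 stood together in 44.2 kb, chr3:93520488-93564643, and 2.86 Mb with 62 protein-coding genes separated them from the others. S100a1 was on the minus strand and the other 9 on the plus strand. S100a2 lay inside the span of S100a3 on the same strand, and the predicted gene Gm42674 overlapped both S100a3 and S100a4. S100a11 has a processed pseudogene, S100a11-ps, on chromosome 12. Reads could have been divided between the overlapping genes or, for S100a11, between the gene and its pseudogene. The levels of S100a3, S100a4 and S100a11 are therefore less certain than those of the other members.

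RefSeq start-site windows of 300 bases (GRCm38.p6) were found for 8 of the 10 members, and not for S100a10 or S100a14. The stretches shown here are the bases before the start site that lay in no annotated exon of a member, read 5′ to 3′ on the plus strand. Those of S100a3 and S100a7a lay inside the Gencode spans of these genes, chr3:90560578-90602702 and chr3:90654017-90658669, and so are not sequence upstream of the whole gene. S100a3 had further windows, and the one shown is that of the start nearest its coding start. S100a3 and S100a7a are shown because they had the largest changes, S100a4 because it fell, and S100a11 because it had the lowest adjusted p in the comparison of the IMQ groups. Capitals mark matches on either strand to the TATA box TATAAA, the AP-1-like string TGANTCA, in which N is any base, or the GC box GGGCGG.
S100a3 chr3:90599964-90600213: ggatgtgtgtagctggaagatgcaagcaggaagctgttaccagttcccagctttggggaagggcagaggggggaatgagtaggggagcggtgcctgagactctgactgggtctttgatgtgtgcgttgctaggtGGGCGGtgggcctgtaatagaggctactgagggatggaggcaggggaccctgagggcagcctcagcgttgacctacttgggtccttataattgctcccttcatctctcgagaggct
S100a7a chr3:90654099-90654286: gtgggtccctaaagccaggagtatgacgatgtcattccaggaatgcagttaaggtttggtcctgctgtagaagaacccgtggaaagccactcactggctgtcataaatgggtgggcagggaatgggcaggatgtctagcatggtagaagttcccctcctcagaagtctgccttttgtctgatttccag
S100a4 chr3:90603520-90603769: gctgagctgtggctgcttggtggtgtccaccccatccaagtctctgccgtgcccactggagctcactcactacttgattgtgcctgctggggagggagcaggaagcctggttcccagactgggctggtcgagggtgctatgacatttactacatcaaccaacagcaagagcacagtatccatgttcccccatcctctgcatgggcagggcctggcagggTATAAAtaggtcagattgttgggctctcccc
S100a11 chr3:93520246-93520487: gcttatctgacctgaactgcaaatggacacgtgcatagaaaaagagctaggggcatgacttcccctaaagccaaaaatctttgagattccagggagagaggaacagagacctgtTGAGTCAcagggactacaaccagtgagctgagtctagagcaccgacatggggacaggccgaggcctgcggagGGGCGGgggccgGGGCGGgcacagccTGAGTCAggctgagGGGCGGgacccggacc
S100a13 and S100a1 chr3:90514393-90514434: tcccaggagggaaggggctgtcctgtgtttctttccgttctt
The last stretch is the 42 bases between the annotated ends of S100a1 and S100a13, whose RefSeq start sites faced away from each other at a distance of 105 bases. Over all 32851 windows, TATAAA was present in 13.6%, TGANTCA in 7.81% and GGGCGG in 35.7%. The window of S100a4 held TATAAA, its first base 31 bases before the start site. A further S100a3 window, that of the start at position 90588563, held TATAAA as well. TGANTCA was found in the windows of S100a11, with 2 matches that both read TGAGTCA, and S100a16, with 1 that reads TGAATCA. None of these 3 strings was found in the windows of S100a1, S100a6, S100a7a and S100a13. A match of letters is not evidence of binding, and no binding was measured.

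The values are FPKM, fragment numbers divided by transcript length and by the mapped fragments of the sample. FPKM accounts for transcript length, so that levels of different genes can be set side by side. The values of a sample summed to between 444660 and 506622 FPKM, and the number of fragments behind a value is unknown. Control replicate 2 stood apart from the other controls. On the first principal component, which held 76.4% of the variance, it scored -63.2 against -116 to -122 for the other 3 controls and 43.4 to 62.3 for the 8 IMQ-treated samples. The summed FPKM of 14 hair shaft genes was 359 in this sample and 15.5 to 36.5 in the other controls, and that of 13 skeletal muscle genes was 5193 against 11643 to 12919. Fold changes that this sample moved by over 1.5 times are given with and without it. Keratinocyte markers were present in every sample, with a summed FPKM of 2380 to 7726 for 6 basal and suprabasal keratin genes. The tissue is whole skin, so that fewer cells of a type and less RNA per cell cannot be told apart.

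Differences were tested with limma on log2(FPKM + 0.1) in the 15288 genes whose FPKM averaged 0.1 or more over the samples, as it did for all 10 members. A gene passed the test at an adjusted p below 0.05, and a DEG (differentially expressed gene) had in addition a log2 fold change over 1 in size. Between the IMQ + NS and the control group, 5 members rose (S100a3, S100a7a, S100a14, S100a16 and S100a6) and 3 fell (S100a4, S100a13 and S100a10). Over all genes tested, 29.0% passed as higher and 27.1% as lower. Of these 8 members 6 were DEGs, with S100a6 and S100a10 below the required size, and DEGs made up 22.4% of all genes. The median log2 fold change was 0.23 over the members and 0.05 over all genes tested. The plot of each member's FPKM by group shows the samples behind these calls.

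**Figure D1:**
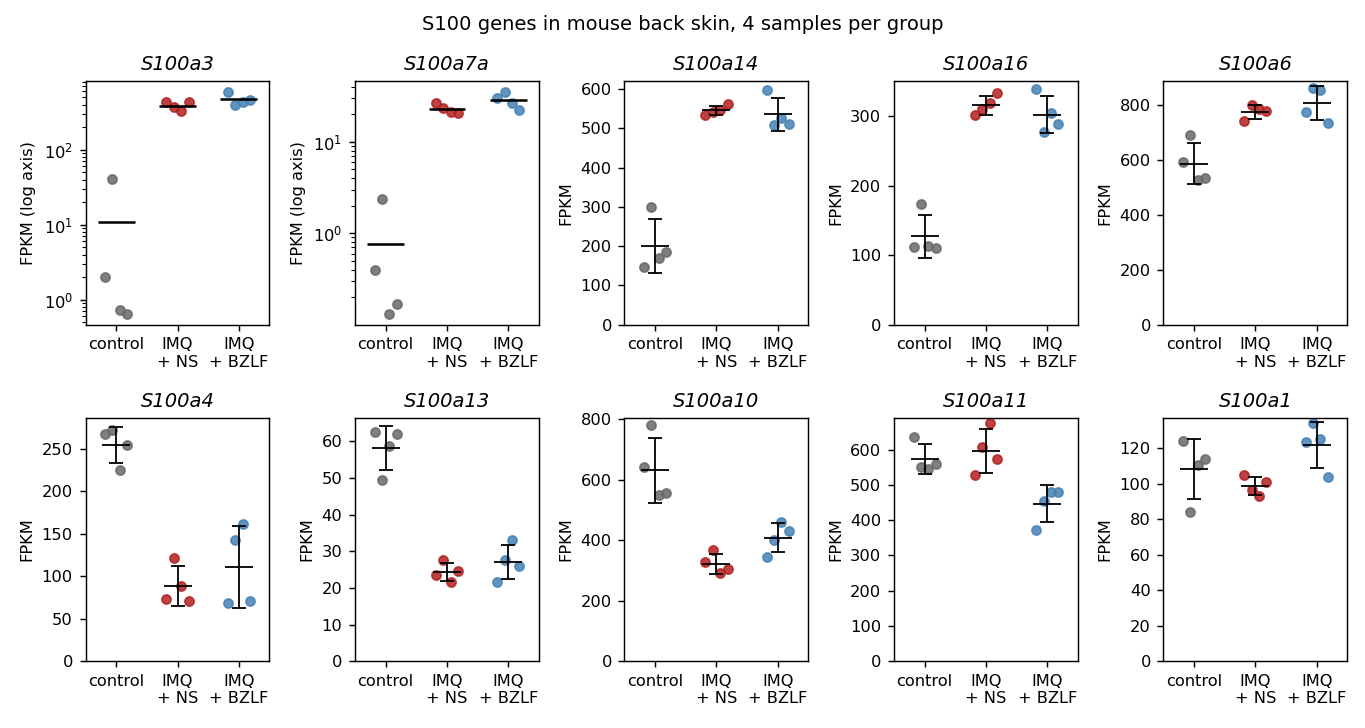
FPKM of the 10 S100 genes by group, with a point per sample (n = 4). Bars are means with SD, except in the S100a3 and S100a7a panels, which have a log axis and show the mean alone. In S100a3, S100a7a, S100a14, S100a16 and S100a6 every IMQ-treated sample lies above every control, in S100a4, S100a13 and S100a10 every one lies below, and in S100a11 all IMQ + BZLF samples lie below all IMQ + NS samples. The share of all genes whose groups separate in this way was not computed.

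S100a3, a protein of the hair cuticle that the enzyme Padi3 citrullinates, showed the largest change. Its level in the control samples was 2.03, 40.2, 0.718 and 0.651 FPKM. In the IMQ + NS samples it was 428, 366, 325 and 432 FPKM, and in the IMQ + BZLF samples 586, 392, 439 and 459 FPKM. Every IMQ-treated sample was above every control, and control replicate 2 was far above the other controls. The log2 fold change in IMQ + NS against control skin was 7.16 (SE 1.12, limma adjusted p = 8.2e-04), or 143-fold. Without control replicate 2 it was 8.46 (SE 0.34, limma adjusted p = 5.7e-07), or 352-fold, and without control replicate 3 or 4 it was 6.59 or 6.55. Of the members' summed FPKM, S100a3 held 0.376% in controls, 12.2% after IMQ + NS and 14.4% after IMQ + BZLF. The 14 hair shaft genes rose in the same samples, with sums of 15.5 to 359 FPKM in controls, 5527 to 8084 in the IMQ + NS group and 7362 to 11154 in the IMQ + BZLF group, all 14 passing as higher. The part of hair shaft cells in the level of S100a3 was not tested.

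S100a7a, the mouse relative of psoriasin, was the member with the lowest level in control skin. The control samples had 0.400, 2.37, 0.132 and 0.170 FPKM, the IMQ + NS samples 26.4, 23.7, 21.1 and 20.9 FPKM, and the IMQ + BZLF samples 30.2, 35.0, 26.8 and 22.2 FPKM. The groups of IMQ-treated skin did not overlap with the controls. The log2 fold change in IMQ + NS against control was 5.45 (SE 0.66, limma adjusted p = 2.1e-04), or 43.6-fold. Without control replicate 2 it was 6.19, or 73.0-fold, and with a constant of 1 in place of 0.1 in the logarithm it was 3.92. Even after this rise S100a7a remained among the members with the lowest levels, at 23.0 ± 2.58 FPKM (SD, n = 4) in the IMQ + NS group.

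S100a14 and S100a16 are epithelial S100 proteins that can bind each other. For S100a14 the control samples had 146, 300, 169 and 185 FPKM, the IMQ + NS samples 534, 540, 547 and 561 FPKM, and the IMQ + BZLF samples 597, 508, 527 and 510 FPKM. Its rise in the IMQ + NS group was 1.50 on the log2 scale (SE 0.19, limma adjusted p = 3.0e-04), or 2.84-fold. S100a16 had 112, 174, 114 and 110 FPKM in control skin, 302, 310, 319 and 333 FPKM after IMQ + NS and 339, 278, 304 and 289 FPKM after IMQ + BZLF. It rose by 1.34 on the log2 scale (SE 0.14, limma adjusted p = 1.2e-04), or 2.53-fold. In both genes control replicate 2 was the highest control, and the lowest IMQ-treated sample was still above it. The coefficient of variation of the 4 IMQ + NS samples was 2.11% for S100a14 and 4.26% for S100a16. The 6 hyperproliferative keratinocyte genes (such as Krt6a, Krt16 and Mki67) summed to 199 to 677 FPKM in control, 2392 to 4262 in IMQ + NS and 1184 to 1434 in IMQ + BZLF skin, and their part in the levels of S100a14 and S100a16 was not tested.

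S100a6, or calcyclin, is a protein of dividing cells that binds annexins and the calcyclin-binding protein Cacybp. Its level was 591, 688, 526 and 533 FPKM in the control samples and 739, 797, 783 and 777 FPKM in the IMQ + NS samples. In the IMQ + BZLF samples it was 773, 860, 855 and 733 FPKM. The groups did not overlap with the control, but the change was small, 0.41 on the log2 scale or 1.33-fold (SE 0.09, limma adjusted p = 0.00536). After quantile normalization the log2 fold change was 0.04 and did not pass (limma adjusted p = 0.806).

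Among the members that fell, S100a4 (metastasin, or fibroblast-specific protein) is made by fibroblasts and immune cells and binds the heavy chain of nonmuscle myosin. Control samples had 267, 273, 225 and 254 FPKM, IMQ + NS samples 73.1, 121, 88.5 and 71.2 FPKM, and IMQ + BZLF samples 68.5, 143, 161 and 71.6 FPKM. All IMQ-treated samples were below all controls, and the IMQ + BZLF samples fell into a higher and a lower pair. S100a4 fell by 1.56 on the log2 scale in the IMQ + NS group (SE 0.16, limma adjusted p = 1.1e-04), which is 2.94-fold lower. S100a13, which takes part in the release of Fgf1 and Il1a without a signal peptide, had 62.6, 49.4, 58.6 and 62.0 FPKM in control skin, 23.5, 27.5, 21.8 and 24.7 FPKM after IMQ + NS and 21.7, 27.6, 32.9 and 26.1 FPKM after IMQ + BZLF. It fell by 1.25 on the log2 scale in IMQ + NS skin (SE 0.10, limma adjusted p = 3.0e-05), or 2.38-fold, and had the lowest adjusted p of the members in this comparison.

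S100a10 (p11) does not respond to calcium and pairs with annexin A2 as a cell-surface binding site of plasminogen. It had 642, 780, 549 and 556 FPKM in control samples, 328, 367, 291 and 306 FPKM in IMQ + NS samples and 346, 401, 459 and 431 FPKM in IMQ + BZLF samples. In the IMQ + NS group it fell by 0.96 on the log2 scale (SE 0.13, limma adjusted p = 3.3e-04), or 1.94-fold, which is just short of the size required of a DEG. It passed that size after quantile normalization (-1.29) and without control replicate 3 (-1.02), control replicate 4 (-1.01) or IMQ + NS replicate 2 (-1.02), where S100a10 would be a further DEG. In control skin S100a10 had the highest mean of the members, 632 ± 107 FPKM (SD, n = 4), and in IMQ + NS skin it was in the fifth place.

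Fibroblast, skeletal muscle and fat genes were lower in the same samples in which S100a4, S100a13 and S100a10 were lower, as were most macrophage and endothelial genes. The 7 fibroblast genes summed to 13251 to 18742 FPKM in control, 3775 to 4975 in IMQ + NS and 4369 to 8218 in IMQ + BZLF skin, with 5 of them passing as lower in IMQ + NS against control. The 13 muscle genes, all passing as lower, summed to 5193 to 12919, 919 to 2187 and 1612 to 2234 FPKM, and the 6 adipocyte genes to 3798 to 8602, 1870 to 2948 and 2529 to 3005 FPKM. Of 8 macrophage genes, 7 passed as lower and 1 as higher in IMQ + NS against control. Of 5 endothelial genes, 3 passed as lower. None of these marker genes was at 0 in all samples of a group. Within the IMQ + BZLF group the pair with the higher S100a4 level also had the highest fibroblast sums, 8218 and 7981 FPKM against 4369 and 7129. Replicate 2 of the IMQ + NS group had the highest values of both in its group, 121 and 4975 FPKM. Among the controls the order was different, as replicate 2 had the highest S100a4 level (273 FPKM) and the lowest fibroblast sum (13251 FPKM). The part of these cell types in the fall of the 3 genes was not tested.

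S100a1 and S100a11 did not pass the test between IMQ + NS and control skin. S100a1, a protein of heart and skeletal muscle that modulates the ryanodine receptor, had 124, 84.3, 111 and 114 FPKM in control samples, 105, 96.5, 93.3 and 101 FPKM in IMQ + NS samples and 123, 134, 125 and 104 FPKM in IMQ + BZLF samples. The log2 difference between IMQ + NS and control was -0.12 (95% interval -0.38 to 0.15, limma adjusted p = 0.415). Without control replicate 2 it was -0.23 and passed (limma adjusted p = 0.0111). The muscle genes summed to at least 5193 FPKM in the controls and at most 2234 FPKM in the IMQ groups. Control replicate 2 had both the lowest S100a1 level (84.3 FPKM) and the lowest muscle sum (5193 FPKM) of the controls. The part of muscle cells in the level of S100a1 was not tested. S100a11 (calgizzarin), a partner of annexin A1 that is built into the cornified envelope, had 637, 552, 545 and 560 FPKM in the control samples and 527, 607, 675 and 574 FPKM in the IMQ + NS samples. The log2 difference was 0.05 (95% interval -0.16 to 0.26, limma adjusted p = 0.647), was -0.01 without IMQ + NS replicate 3 and turned to -0.33, which passed, after quantile normalization.

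**Figure D2:**
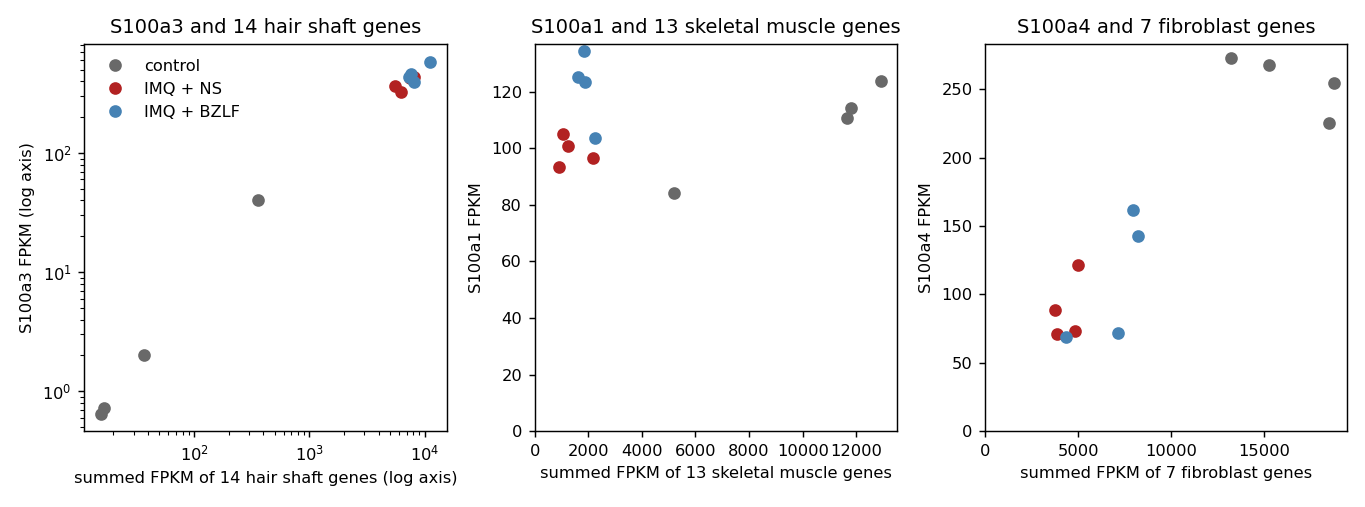
Each point is a sample, with the summed FPKM of a marker list on the horizontal axis and the FPKM of S100a3, S100a1 or S100a4 on the vertical axis. Both axes of the S100a3 panel are logarithmic. S100a3 and the 14 hair shaft genes are low in the controls and high in the 8 IMQ-treated samples with control replicate 2 between them. S100a1 lies between 84.3 and 134 FPKM at muscle sums from 919 to 12919 FPKM.

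The question of the second comparison was whether BZLF altered the S100 genes of the lesion. Between the IMQ + BZLF and IMQ + NS groups, 0 members passed the test as higher and 0 as lower with limma. Over all genes 1.28% passed as higher and 5.17% as lower, and DEGs in either direction made up 2.52%. Higher genes were 19.8% of those that passed, and 33.8% after median ratio scaling or 32.1% after quantile normalization. At an unadjusted p below 0.05 there were 3 of the 10 members, S100a1, S100a10 and S100a11, and 22.7% of all genes. The median log2 fold change was 0.20 over the members and -0.02 over all genes.

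Among the members, S100a11 came nearest to the threshold. The IMQ + BZLF samples had 372, 454, 481 and 481 FPKM, all below the lowest IMQ + NS sample at 527 FPKM. The log2 difference was -0.42 (95% interval -0.66 to -0.17, limma adjusted p = 0.0526), or 1.33-fold lower. It passed in a fit of all 12 samples (limma adjusted p = 0.0382) and without IMQ + NS replicate 1 (limma adjusted p = 0.0469). With the replicate number as a block it passed as well (limma adjusted p = 0.0351). The 8 macrophage genes summed to 631 to 891 FPKM in the IMQ + NS and 416 to 620 FPKM in the IMQ + BZLF group, with 2 of 8 passing as lower, and the 7 neutrophil genes, all passing as lower, to 25.6 to 73.5 and 3.64 to 7.35 FPKM. Between IMQ + NS and control skin, where S100a11 differed by 0.05, all 7 neutrophil genes passed as higher. Of the 8 macrophage genes, 7 passed as lower and 1 as higher there. The 6 hyperproliferative keratinocyte genes summed to 2392 to 4262 FPKM in the IMQ + NS and 1184 to 1434 FPKM in the IMQ + BZLF group, with 3 passing as lower. The part of all these cells in the level of S100a11 was not tested.

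The S100a10 level was 0.34 higher on the log2 scale in the IMQ + BZLF group (95% interval 0.10 to 0.57, limma adjusted p = 0.0942), and the groups overlapped. It passed after median ratio scaling (0.39, limma adjusted p = 0.0442), after quantile normalization (0.37, limma adjusted p = 0.0439) and without IMQ + BZLF replicate 1 (0.42, limma adjusted p = 0.0352). S100a1 differed by 0.29 (95% interval 0.11 to 0.48, limma adjusted p = 0.0697), with the lowest IMQ + BZLF sample, replicate 4, below the highest IMQ + NS sample, and passed without that replicate (limma adjusted p = 0.019). None of the 3 differences reached 1.5-fold.

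The other 7 members are described by their ratios and intervals, since a p above the threshold does not show that the groups were alike. The ratio of IMQ + BZLF to IMQ + NS was 1.20 for S100a3 (95% interval 0.973 to 1.49) and 1.23 for S100a7a (0.994 to 1.52). For S100a14 the ratio was 0.979 (0.878 to 1.09), for S100a16 it was 0.955 (0.852 to 1.07), and both ratios were above 1 after quantile normalization. S100a6 had a ratio of 1.04 (0.922 to 1.17). Among the members that had fallen, S100a13 had a ratio of 1.10 (0.911 to 1.34), and S100a4, whose IMQ + BZLF samples were spread most, a ratio of 1.19 (0.742 to 1.91). Their limma adjusted p lay between 0.231 and 0.837.

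**Figure D3:**
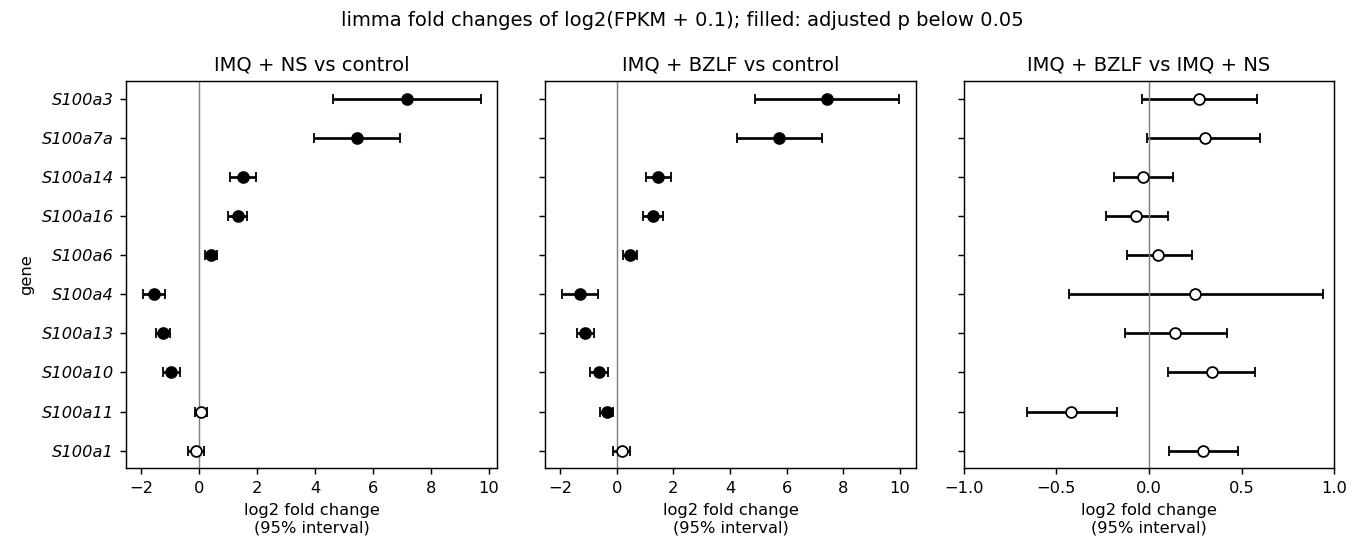
log2 fold changes of the 10 S100 genes with 95% intervals from limma in the comparisons of IMQ + NS with control, IMQ + BZLF with control and IMQ + BZLF with IMQ + NS, the last on a narrower axis. Filled symbols have an adjusted p below 0.05, and all 10 are open in the comparison of the IMQ groups, where the values lie between -0.42 (S100a11) and 0.34 (S100a10).

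Of the other S100 genes of the table that could be tested, S100a8 and S100a9 passed between the IMQ groups, and S100a7l2, S100b and S100a2 did not. S100a8 and S100a9, the calprotectin genes, had log2 fold changes of 7.58 and 7.44 in IMQ + NS against control and of -5.92 and -7.06 in IMQ + BZLF against IMQ + NS skin (limma adjusted p = 4.4e-05 for both of the latter). Their summed level was 24.9 to 41.7 FPKM in control, 3105 to 9831 FPKM in IMQ + NS and 58.1 to 77.5 FPKM in IMQ + BZLF samples. The summed level of the 10 members was 2298 to 2943, 3087 to 3257 and 3128 to 3411 FPKM in the same groups. S100a7l2, a further relative of psoriasin, had 7.21 to 11.1 FPKM in control samples and at most 0.179 FPKM in any IMQ-treated sample, a fall of 6.19 on the log2 scale in the IMQ + NS group (limma adjusted p = 8.6e-07), with a difference of 0.19 between the IMQ groups (limma adjusted p = 0.83). S100b, a marker of Schwann cells, fell by 1.13 in the IMQ + NS group (limma adjusted p = 0.0126) and differed by 1.08 between IMQ + BZLF and IMQ + NS skin (limma adjusted p = 0.0525), with means of 2.77, 1.22 and 2.64 FPKM in the control, IMQ + NS and IMQ + BZLF samples. S100a2, at most 0.474 FPKM in any sample, did not pass in IMQ + NS against control skin (1.06, limma adjusted p = 0.0615) or between the IMQ groups (-0.09, limma adjusted p = 0.953). S100a5, S100g and S100z did not exceed 0.207 FPKM in any sample.

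The third comparison set BZLF-treated lesions against control skin, and it shares its samples with the other comparisons, so that its calls are not independent of theirs. In the IMQ + BZLF group 5 members were higher and 4 were lower than in the control group, with 23.8% and 29.2% of all genes. The DEGs among them were the same 6 genes as before, against 19.7% of all genes. The median log2 fold change was 0.32 over the members and -0.02 over all genes. S100a3 was higher by 7.43 on the log2 scale (limma adjusted p = 8.8e-04), and by 8.73 without control replicate 2. S100a7a was higher by 5.74 (limma adjusted p = 2.6e-04), and by 6.49 without that sample. S100a14 was higher by 1.47, S100a16 by 1.27 and S100a6 by 0.47. After quantile normalization S100a6 had a difference of 0.16 and did not pass.

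S100a4 fell by 1.30 on the log2 scale (limma adjusted p = 0.00464), S100a13 by 1.11, S100a10 by 0.62 and S100a11 by 0.36. The last of these, 1.29-fold lower (limma adjusted p = 0.0160), was the member that passed here and not between IMQ + NS and control skin, and its difference between the IMQ groups missed the threshold as given above. With the replicate number as a block S100a11 did not pass here (limma adjusted p = 0.064). S100a1 did not pass (0.18, 95% interval -0.12 to 0.48, limma adjusted p = 0.285).

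The order of the levels changed with IMQ. In control skin the means ran from S100a10 (632 FPKM), S100a6 (585) and S100a11 (573) through S100a4 (255), S100a14 (200), S100a16 (127), S100a1 (108) and S100a13 (58.1) to S100a3 (10.9) and S100a7a (0.767). The sample ranges of the first 3 overlapped from neighbour to neighbour, as did those from S100a4 to S100a1, and S100a3 overlapped S100a7a. In the IMQ + NS group S100a6 (774) led without overlap, followed by S100a11 (596) and S100a14 (546), which overlapped, by S100a3 (388), S100a10 (323) and S100a16 (316), which overlapped in turn, by S100a1 (98.9) and S100a4 (88.5), which overlapped, and by S100a13 (24.4) and S100a7a (23.0), which overlapped. The IMQ + BZLF group had S100a6 (805) first, again without overlap with the next gene. Its ranges overlapped from neighbour to neighbour over S100a14 (535), S100a3 (469), S100a11 (447) and S100a10 (409). S100a16 (303) was apart from both neighbours, and S100a1 (122) overlapped S100a4 (111), as S100a7a (28.6) did S100a13 (27.1).

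Some neighbours on the chromosome differed in direction and others did not. S100a3 and S100a4 are 1.1 kb apart, and the first rose while the second fell. S100a1 and S100a13, with start sites 105 bases apart on opposite strands, had log2 fold changes of -0.12 and -1.25 in IMQ + NS against control skin, and S100a13 alone of the pair passed. S100a13 and S100a14, 2.3 kb apart, fell and rose. S100a14 and S100a16, 8.4 kb apart, both rose, 2.84-fold and 2.53-fold. S100a16 and S100a3, as well as S100a6 and S100a7a, also rose as neighbours. S100a4 fell while S100a6 rose, but S100a5 lies between them.

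**Figure D4:**
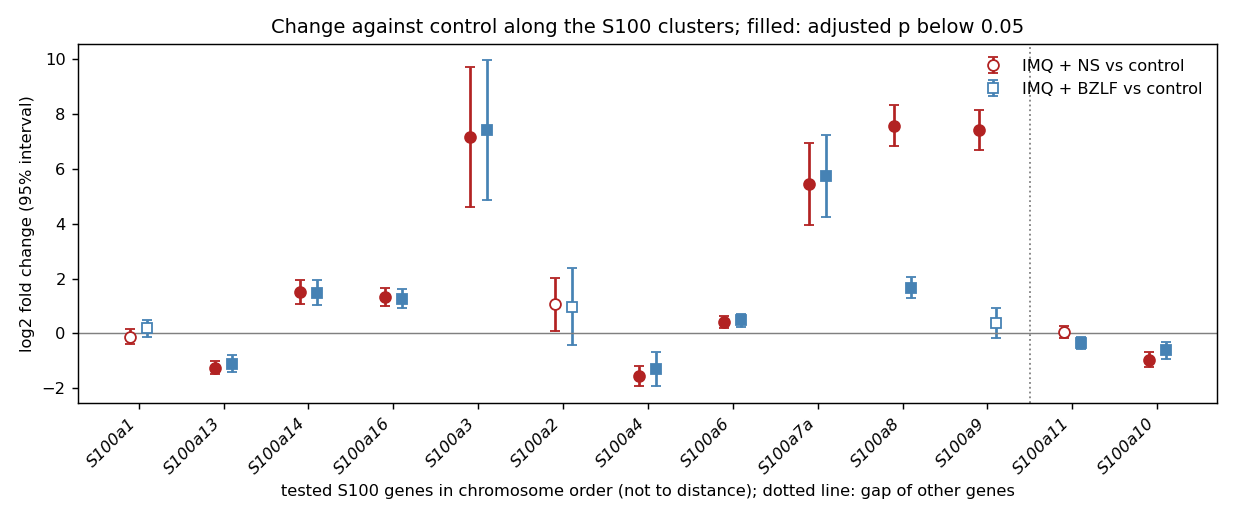
log2 fold changes against control with 95% intervals for the tested S100 genes with an annotated position on chromosome 3, in chromosome order and equally spaced. Circles are IMQ + NS and squares IMQ + BZLF, filled where the adjusted p is below 0.05. S100a7l2, which was tested and fell, had no position under this symbol in the annotation used and is not drawn. S100a2, S100a8 and S100a9 are no members and are drawn for their place. Rises (S100a14, S100a16, S100a3, S100a6 and S100a7a) and falls (S100a13 and S100a4) both stand in the first group of genes, in the order fall (S100a13), rise (S100a14, S100a16 and S100a3), fall (S100a4) and rise (S100a6 and S100a7a), and S100a8 and S100a9 differ between the IMQ groups where the members are close together.

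Genes known to work with S100 proteins were examined next, from a list of 20 partners, of which 19 had enough signal to be tested. Over all genes tested, 29.0% passed as higher, 27.1% as lower and 22.4% were DEGs in IMQ + NS against control skin. Of the partners 6 rose and 9 fell in this comparison, with a median log2 fold change of 0.01. The DEGs were Padi3, the enzyme that citrullinates S100a3 (6.94), Padi1 (6.57), Il1a, which S100a13 helps to release (1.97), and Ryr1, the target of S100a1 in muscle (-1.99). Padi3 rose from 4.74 ± 8.90 to 123 ± 19.0 FPKM (SD, n = 4) and was 155 ± 26.9 FPKM in the IMQ + BZLF group. The median control level of Padi3 was 0.346 FPKM, and control replicate 2 was at 18.1 FPKM. The annexins and Ager, the gene of RAGE, were not among the DEGs. In IMQ + BZLF against IMQ + NS skin 1 partner, Capzb, passed as lower and 0 as higher, with 4 of the 19 at an unadjusted p below 0.05 in limma, near the shares over all genes of 5.17% passing as lower and 22.7% at that unadjusted p. Against control skin the IMQ + BZLF group had 5 partners higher and 9 lower, beside 23.8% and 29.2% of all genes. The DEGs were the 4 genes named, and DEGs made up 19.7% of all genes. Without control replicate 2, the values in IMQ + NS against control were 8.33 for Padi3 and 7.59 for Padi1, Cacybp (0.31) and Sugt1 (0.26) passed as well, and Myh9 (1.12) and, in IMQ + BZLF against control, Tlr4 (-1.07) reached the size of a DEG. The sum of the 20 partners lay between 1642 and 1912 FPKM in every sample.

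The S100 fused-type genes, which carry an S100 domain at the start of a long repetitive protein and lie between the groups of S100 genes, numbered 7. In IMQ + NS against control skin 5 rose and 1 fell, and all 6 were DEGs. Over all genes, 29.0% passed as higher, 27.1% as lower and 22.4% were DEGs. Tchhl1 rose by 7.92 on the log2 scale, Crnn by 7.33, Tchh (trichohyalin, of the hair root sheath) by 7.14, Rptn by 3.86 and Flg (filaggrin) by 3.30, and Flg2 fell by 3.35. Their summed level was 26.0 to 240 FPKM in control, 1802 to 2333 FPKM in IMQ + NS and 2188 to 3173 FPKM in IMQ + BZLF skin, with Tchh alone at a mean of 1703 FPKM in the IMQ + NS group. Control replicate 2 was the sample at 240, and the other controls were at 26.0 to 30.1 FPKM. Without it the log2 fold changes in IMQ + NS skin were 8.64 for Tchhl1, 8.70 for Crnn and 8.50 for Tchh. In IMQ + BZLF against IMQ + NS skin, Flg2 was higher by 1.98 (limma adjusted p = 0.0134) and Rptn was lower, with a log2 fold change of -2.41 (limma adjusted p = 0.0221). Hrnr passed only between IMQ + BZLF and control, at 1.29 (limma adjusted p = 0.0335), with groups that overlapped, and did not pass without control replicate 2 (limma adjusted p = 0.0584). The other 6 fused-type genes passed in that comparison as well, with Flg2 lower and the rest higher. Over all genes, 23.8% passed as higher and 29.2% as lower there.

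The genes whose pattern was most like that of each member were sought among 12642 genes averaging 1 FPKM or more, by the root mean square difference of standardised log2 values over the 12 samples, in units of SD. Slc7a8 (0.0521) and Kcnk16 (0.0522) were the nearest to S100a3, and Slc40a1 (0.0649) and AU018091 (0.0685) to S100a7a. Midn (0.0764) was nearest to S100a14, and Ascc3 (0.0746) and Galnt6 (0.0876) were nearest to S100a16. For S100a13 they were Olfml1 (0.104) and Gpx4 (0.106), for S100a10 Gpx7 (0.177) and Gpr180 (0.215), and for S100a6 Nlk (0.221) and N4bp2 (0.238). S100a11 was nearest to Fmnl1 (0.227) and Snx20 (0.248), S100a4 to Cyb5r3 (0.229) and Slc6a2 (0.276), and S100a1, whose closest genes were the least alike, to Mospd1 (0.469) and Cgnl1 (0.503). The measure does not separate likeness between the groups from likeness within them.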

How the data were processed

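The data are RNA-seq of 12 samples of mouse back skin. The authors deposited FPKM values, normalized for transcript length and depth, with a column per sample, and 0 columns had no sample. Sources disagree on how they were made. The study's methods describe mirVana extraction, a ribosomal RNA-depleted stranded library and Bowtie2 alignment to mRNA and lncRNA transcripts with quantification by eXpress, whereas the labels name TRIzol and a VAHTS kit, and the processing notes name fastp, HISAT2, HTSeq, R 3.2.0 and mm10. The study tested counts with DESeq2, which were not used here. Of 159714 low values, 12.0% came within 0.05 of being whole when divided by their gene's lowest value, so counts were not rebuilt. The depth behind a value is therefore unknown.

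Genes averaging 0.1 FPKM or more were tested in each pair of groups (4 against 4) with limma 3.58.1 in R 4.3.3 on log2(FPKM + 0.1), with a variance trend and Benjamini-Hochberg adjustment. The constant of 0.1 understates fold changes of low genes. The procedure was tested on simulated data. The sample titles number the samples and do not say whether equal numbers are paired, so the main fits used no pairing. The labels do not describe how samples of a group were obtained, and each was taken as a separate mouse. A p-value sets the difference between 2 groups against the spread between the samples within them. Alternatives were a constant of 0.01 or 1, no filter, a filter at an average of 1 FPKM, median ratio scaling, quantile normalization, all 12 samples in one fit, no variance trend, the replicate number as a block, and each sample left out. All members were named with every value, and of the partner and fused-type lists the DEGs, and for each member the 2 genes with the most similar pattern, of which 1 is not reported here. Capzb was named because it was the sole call, and S100a2 and Gm42674 for their position. Members and lists were chosen with earlier results of these data known.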

Additional observations from a re-analysis of the deposited data

Results flagged for a closer look

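Among 30 sets of 4 samples (10 genes in 3 groups), 4 held a sample far from the other 3 of its group, where chance gives about 1 in 20. S100a3 in control replicate 2 was at 40.2 FPKM, with the next control at 2.03 FPKM. S100a7a in the same sample was at 2.37 FPKM against 0.400 FPKM in the next. S100a16 was at 173.9 FPKM there, against 113.7 FPKM. S100a11 in control replicate 1 was at 637 FPKM, with the next control at 560 FPKM.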

How the results depend on the processing

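Each member's fold change was recomputed under 9 other settings and with each sample left out. In IMQ + NS against control 166 of 170 fold changes kept their direction and their side of the threshold, in IMQ + BZLF against IMQ + NS 160 of 170, and in IMQ + BZLF against control 168 of 170. The numbers of members higher and lower against control stayed within 1.5 times under all settings. In IMQ + BZLF against IMQ + NS the number of higher members became 1 (S100a10) with median ratio scaling and 1 with quantile normalization, and ranged from 0 to 1 with a sample left out (S100a10 or S100a1). The number of lower members became 1 (S100a11) with all 12 samples in one fit and 1 with the replicate block (limma adjusted p = 0.0351), and ranged from 0 to 1 with a sample left out. The limma adjusted p over the other settings ranged from 0.0439 to 0.191 for S100a10, from 0.0351 to 0.106 for S100a11 and from 0.0682 to 0.228 for S100a1. The direction turned for S100a11 in IMQ + NS against control (-0.33 with quantile normalization, and -0.01 without IMQ + NS replicate 3, in a range of -0.01 to 0.11), for S100a14 in IMQ + BZLF against IMQ + NS (0.03 with median ratio scaling and 0.05 with quantile normalization) and for S100a16 (0.02 with quantile normalization). The cause was not tested. Quantile normalization moved the median log2 fold change of all genes in IMQ + NS against control from 0.053 to -0.071. Samples with the same number correlated at -0.152 to 0.260 in their deviations from the group means. Samples numbered 3 and 4 correlated best with their own number in each comparison. Those numbered 2 never did, and those numbered 1 did in IMQ + BZLF against IMQ + NS alone. Whether equal numbers are paired is therefore not known. With the replicate number as a block 5 members were higher and 3 lower in IMQ + NS against control, and 5 and 3 in IMQ + BZLF against control, where S100a11 lost its call (-0.36, limma adjusted p = 0.0640, against 0.00093 to 0.0640 over the other settings). Depth could not be weighed, since the files give no counts.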
